A study of Mus musculus with 4 samples.

Results

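The genes described here encode the enzymes and transporters of glycolysis, of lactate export and of the pentose phosphate pathway. They were taken by symbol from a list of 32 mouse genes, and the rule that selects them uses no measured value. All 32 symbols were found in the annotation, where they matched 33 of 55536 gene rows, because Aldoa carries a second identifier that stood at 0.0875 TPM. Levels are given in TPM, a relative abundance per transcript length, so that levels can be compared between genes.

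The genes were measured by sequencing of polyadenylated RNA from macrophages grown from the bone marrow of C57BL/6J mice. All 4 libraries belonged to 1 group, in which the cells were exposed for 60 minutes to 100 ng/mL of a stimulus, lipid A in one label field and lipoprotein A in others. The libraries are numbered as biological replicates 1 to 4 with 1 donor label, and no source names different animals or cultures. A p-value between libraries therefore measures only the spread of these libraries, and that spread may be technical. Age and sex were not collected. No unstimulated cells were analysed here, so none of the values measures a response to the stimulus.

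Glycolysis splits glucose into pyruvate in the cytosol and yields ATP, and lactate dehydrogenase turns pyruvate into lactate, which monocarboxylate transporters carry out of the cell. The pentose phosphate pathway branches off at glucose-6-phosphate. Its oxidative arm makes NADPH, which macrophages use for the oxidative burst and for glutathione, and its non-oxidative arm interconverts sugar phosphates and supplies ribose. Macrophages are known to raise glycolysis after stimulation through Toll-like receptors.

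Total gene counts were 26917324, 30042947, 35277710 and 39438414 in replicates 1 to 4. Replicate 1 held the largest share of ribosomal RNA at 12.3%, against 3.26 to 6.98% in the other libraries. It also had the highest summed level of 6 cycling-cell markers, 871 TPM against 244 to 472 TPM, of which Pcna alone made up 653 TPM. Mki67 was instead highest in replicate 2, at 49.2 TPM against 38.3 TPM in replicate 1. All 10 macrophage markers reached 1 TPM in every library, with a summed level of 20031 to 35654 TPM. Of 10 neutrophil and granulocyte precursor markers 5 did so, with sums of 79.2 to 224 TPM in replicates 1, 2 and 4 and 747 TPM in replicate 3. Markers of T, NK and B cells, erythroid cells and granulocytes of the mast cell and eosinophil lines summed to at most 3.04 TPM per list and library, and those of stromal and endothelial cells to 4.77 to 10 TPM. Muscle is a known source of Eno3 and Pfkm, and its 5 markers summed to 0.0600 to 0.690 TPM, with Myh4 and Mb at 0. Of 4 markers of astrocytes and neurons, where Aldoc is abundant, Gfap, Snap25 and Rbfox3 were also at 0. The other, Tubb3, was at 0 to 0.180 TPM. The part of cell makeup or RNA quality in the differences between libraries was not tested. In such bulk RNA, fewer cells of a type and less RNA per cell cannot be told apart.

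Pkm encodes 2 forms of muscle-type pyruvate kinase through 2 mutually exclusive exons, and they are shown because the reads of these libraries were divided between them. Each is the ninth exon of its transcript and 167 bases long on the plus strand of chromosome 9 (GRCm38). The upstream exon, at chr9:59675029-59675195, was annotated in transcript Pkm-202 and is known as the M1 exon. The downstream exon, at chr9:59675568-59675734, was annotated in Pkm-201 and is known as the M2 exon. Capitals mark the 64 positions at which they differ, and the remaining 61.7% of bases are identical.
Upstream Pkm exon: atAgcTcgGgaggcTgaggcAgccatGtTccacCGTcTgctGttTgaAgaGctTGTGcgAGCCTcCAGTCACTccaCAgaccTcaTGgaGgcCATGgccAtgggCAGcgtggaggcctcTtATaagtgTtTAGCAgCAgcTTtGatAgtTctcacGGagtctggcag
Downstream Pkm exon: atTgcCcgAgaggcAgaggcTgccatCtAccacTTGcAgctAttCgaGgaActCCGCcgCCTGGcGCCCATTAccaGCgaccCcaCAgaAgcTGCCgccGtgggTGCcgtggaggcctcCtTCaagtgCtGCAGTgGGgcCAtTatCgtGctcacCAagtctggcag

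Promoter stretches are shown for 4 genes whose counts differed at least 2-fold between libraries, whose leading transcript starts within 35 bases of the RefSeq start site (GRCm38.p6) and whose 250 bases upstream held more than 1 match. They were searched for ACGTG and GCGTG on both strands, the core letters of the hypoxia response element, and capitals mark the matches. The stretch of Slc2a6 lies at chr2:27028031-27028090 on the minus strand, from 92 to 33 bases before the start site. That of Pgk1 lies at chrX:106186939-106186998 on the plus strand, from 161 to 102 bases before it. For Ldha it is chr7:46845740-46845799 on the plus strand, 64 to 5 bases before the start, and for Slc16a1 it is chr3:104638500-104638559 on the plus strand, 164 to 105 bases before the start.
Slc2a6: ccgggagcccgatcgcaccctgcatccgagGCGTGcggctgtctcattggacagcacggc
Pgk1: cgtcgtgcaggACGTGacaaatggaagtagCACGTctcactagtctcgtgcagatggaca
Ldha: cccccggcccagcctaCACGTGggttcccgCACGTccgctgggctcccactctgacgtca
Slc16a1: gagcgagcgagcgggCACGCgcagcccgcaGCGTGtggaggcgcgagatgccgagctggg

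All 32 genes had a RefSeq window of 250 bases before to 50 bases after the start site, and 27 of these windows (84.4%) held ACGTG or GCGTG. Of all 32851 windows 43.8% did, and of the 10103 windows of genes at 1 TPM in every library 63.1% did. The 5 windows with no match were those of Gpi1, Tpi1, Pkm, Pfkfb1 and Rpe. The Ldha window had the most matches, 7. CACGTG, the E-box bound by Myc-family factors, contains ACGTG and was found in 3 of the 32 windows (9.38%), those of Ldha, Slc16a1 and Pfkfb2, against 7.15% of all windows and 10.7% of windows of genes at 1 TPM. A match describes letters in a window and is not a measured site.

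Almost the whole pathway was transcribed in these macrophages. Of the 32 genes 31 reached 1 TPM in every library, and the exception was Pfkfb1. The mean level was at least 100 TPM for 14 genes, 10 to 100 TPM for 12 and under 10 TPM for 6. The median of the 32 means was 55.9 TPM, against 16.9 TPM for the 10250 genes at 1 TPM in every library. In single libraries the median gene of the list stood at 52.1, 62.7, 41.4 and 48.7 TPM in replicates 1 to 4. The median was 44.0 TPM in the second quantification, a separate estimate from the same reads. In it the levels of the 32 genes were a median of 0.778 of their first values, as were those of all genes at 1 TPM.

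Summed over the genes of the list at each step, the steps spanned more than 2 orders of magnitude on the TPM scale. The top was the GAPDH step at 1294 ± 279.9 TPM (SD, n = 4), which also ranked first in each library. Aldolase followed at 561 ± 62.8 TPM, then pyruvate kinase at 526 ± 291 and lactate dehydrogenase at 343 ± 137. Aldolase was above pyruvate kinase in 3 of 4 libraries, so these neighbours did not differ beyond their spread. Transaldolase (303 ± 27.2 TPM), phosphoglycerate mutase (279 ± 43.9), phosphoglycerate kinase (258 ± 94.0) and hexokinase (255 ± 28.9) stood close together, and their order changed between libraries. The lower end held phosphofructokinase at 46.6 ± 6.38 TPM, ribulose-5-phosphate epimerase at 21.5 ± 3.17, lactate transport at 14.0 to 25.4 and ribose-5-phosphate isomerase at 7.28 ± 0.636. Ribose-5-phosphate isomerase was last in 4 of 4 libraries. These ranks hold within the list, which leaves out other genes of some steps, such as the lactate and pyruvate transporter gene Slc16a7 at a mean of 35.7 TPM. Of the 20 pairs of neighbouring steps, 6 kept their order in every library.

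**Figure D1:**
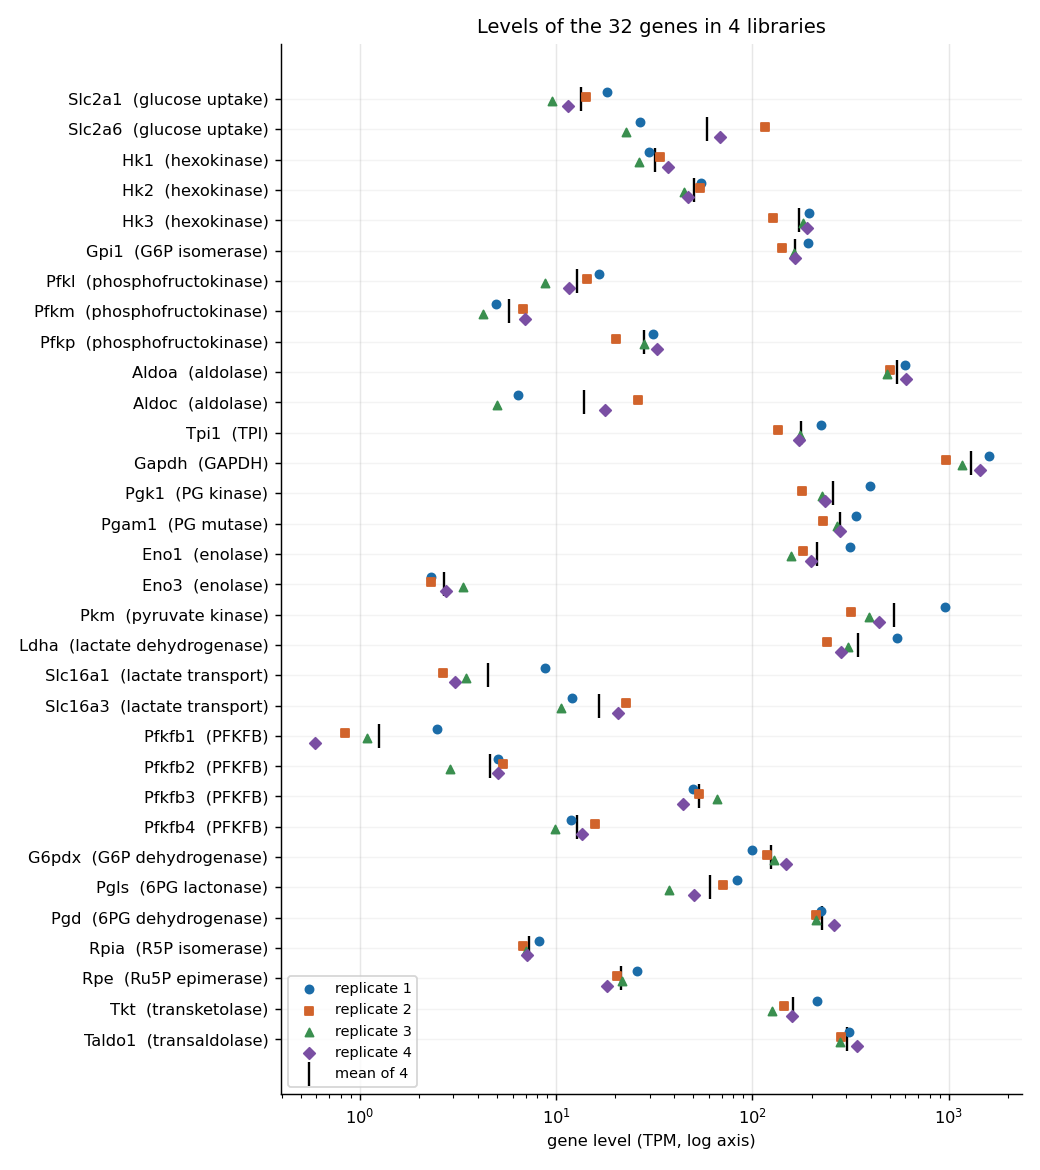
Level of each of the 32 genes in TPM on a log axis, with 1 coloured symbol per library, a black tick at the mean of the 4 libraries, and the genes ordered along the pathways. Gapdh lies at the right (971 to 1599 TPM) and Pfkfb1 at the left (0.590 to 2.48 TPM), and the symbols of Slc2a6, Aldoc, Pkm and Slc16a1 are spread more widely than those of Hk2, Aldoa or Taldo1.

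At 7 steps the list holds several genes, which form 16 pairs. In each of the 16 pairs the difference in log2(TPM + 0.1) had the same sign in 4 of 4 libraries. Folds between the genes of a pair are 2 to the power of the mean of these differences. They can therefore differ from the ratio of the 2 mean levels. The exact 2-sided sign-flip permutation test gave p = 0.125 for every pair (adjusted over the 16 pairs, 0.125), which is the smallest p that 4 libraries allow, so no pair could pass 0.05.

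At the step named glucose uptake the list holds Slc2a6 and Slc2a1, and Slc2a6 was the higher. Slc2a6 encodes GLUT6, a transporter-family protein found on intracellular membranes, so its level does not measure glucose entry into the cell. Its gene lies at chr2:27021363-27027998 on the minus strand (mm10). Slc2a6 stood at 26.6, 116, 22.8 and 68.5 TPM in replicates 1 to 4, a mean of 58.5 ± 43.6 (SD, n = 4). Replicates 2 and 4 were high and replicates 1 and 3 low, with a gap between them. Slc2a1, which encodes GLUT1, the general glucose importer of the plasma membrane, stood at 18.2, 14.2, 9.58 and 11.5 TPM, a mean of 13.4 ± 3.72. Slc2a6 held 76.1% ± 13.8 of the sum of both (59.4 to 89.1%), and its level was 3.59-fold that of Slc2a1 (log2 difference 1.84 ± 1.15). Outside the list, Slc2a8, Slc2a9 and Slc2a3 stood at means of 9.85, 6.09 and 3.73 TPM.

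Hexokinases trap glucose as glucose-6-phosphate, and Hk3 was the most abundant of the 3. Its gene lies at chr13:55005985-55021385 on the minus strand. Hk3 stood at 195, 127, 182 and 189 TPM, a mean of 173 ± 31.3, with replicate 2 below the other libraries. It held 67.4% ± 5.75 of the hexokinase sum and stood 3.40-fold above Hk2 and 5.40-fold above Hk1. Hk2, the isoenzyme known from muscle and from proliferating cells, was measured at 54.4, 54.3, 45.0 and 47.1 TPM (50.2 ± 4.86). Hk1, the widely expressed form, was measured at 29.7, 33.9, 26.5 and 37.0 TPM (31.8 ± 4.60). The order of Hk2 and Hk1 depended on the quantification, since the second gave Hk2 26.3 ± 1.66 TPM, 0.524 of the first value, and Hk1 27.0 ± 5.27 TPM. The log2 difference between them was 0.67 ± 0.22 in the gene table and -0.02 ± 0.21 in the second quantification. It was 0.03 ± 0.22 when only protein-coding transcripts were summed. Hk2-202, a noncoding transcript of 594 bases, held 35.5% of the Hk2 level in the first transcript table and 0% in the second.

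Gpi1, the isomerase of glucose-6-phosphate and fructose-6-phosphate, stood at 165 ± 20.7 TPM. The next enzyme, phosphofructokinase, catalyses the committed step, and its platelet-type subunit gene Pfkp, at chr13:6579768-6648777 on the minus strand, led. Pfkp was measured at 31.3, 20.1, 27.9 and 32.8 TPM (28.0 ± 5.68), the lowest value being that of replicate 2. Pfkl, the liver type, followed at 16.5, 14.4, 8.77 and 11.6 TPM (12.8 ± 3.34). Pfkm, the muscle type, was the lowest at 4.96, 6.79, 4.22 and 6.96 TPM (5.73 ± 1.36). Replicates 2 and 4 were higher in Pfkm than replicates 1 and 3. Pfkp held 60.0% ± 8.36 of the step, 2.20-fold the level of Pfkl and 4.84-fold that of Pfkm. The 3′ end of Pfkp overlaps 748 exon bases of Pitrm1 on the opposite strand, whose counts were 80.0% of those of Pfkp. No source used here gives the strand setting of the counting, so the Pfkp level is uncertain.

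The bifunctional PFKFB enzymes make and break fructose-2,6-bisphosphate, the activator of phosphofructokinase. Pfkfb3, a form with high kinase activity encoded at chr2:11471433-11554077 on the minus strand, led the 4 with 49.8, 53.4, 65.9 and 44.1 TPM (53.3 ± 9.21) and a share of 73.8% ± 5.93. The level of Pfkfb4 was 11.9, 15.8, 9.93 and 13.5 TPM (12.8 ± 2.50), and that of Pfkfb2 was 5.05, 5.34, 2.89 and 5.03 TPM (4.58 ± 1.13). Pfkfb1, the liver and muscle form, was at 2.48, 0.840, 1.09 and 0.590 TPM (1.25 ± 0.845), from 38, 15, 30 and 17 counts. The order Pfkfb3, Pfkfb4, Pfkfb2, Pfkfb1 was the same in every library, with Pfkfb3 4.16-fold above Pfkfb4 and 44.5-fold above Pfkfb1. A 123-base exon overlap with Apex2 on the opposite strand, whose counts were 483% of those of Pfkfb1, leaves the Pfkfb1 level uncertain.

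Aldolase A accounted for nearly all aldolase message. Aldoa, at chr7:126795234-126800751 on the minus strand, was measured at 599.7, 499.6, 486 and 604 TPM (547 ± 63.1). Aldoc, the isoenzyme known from brain, was measured at 6.36, 26.2, 5.01 and 17.7 TPM (13.8 ± 10). Aldoc was high in replicates 2 and 4 and low in replicates 1 and 3, the same split as for Slc2a6. Aldoa held 97.5% ± 1.88 of the step, 48.8-fold the level of Aldoc. Tpi1, which interconverts the triose phosphates made by aldolase, stood at 176 ± 36.4 TPM.

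The lower part of glycolysis yields the ATP, and most of its genes are carried by a single abundant member. Gapdh, which oxidises glyceraldehyde-3-phosphate, was the highest of the 32 at 1294 ± 279.9 TPM and ranked 86 among protein-coding genes. The second quantification gave it 794 ± 194 TPM, or 0.614 of the first value. Pgk1, the first ATP-making enzyme of the pathway, lies at chrX:106187100-106203699 on the plus strand. It stood at 395, 179, 225 and 235 TPM (258 ± 94.0), with replicate 1 above the rest. Pgam1, which moves the phosphate group, was at 279 ± 43.9 TPM. Eno1, the ubiquitous enolase, lies at chr4:150236721-150248879 on the plus strand and was measured at 315, 182, 157 and 199 TPM (213 ± 69.9). Eno3, the muscle form, was measured at 2.30, 2.30, 3.34 and 2.74 TPM (2.67 ± 0.492), and Eno1 held 98.6% ± 0.557 of the sum of both.

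Pkm, at chr9:59656368-59679375 on the plus strand, was measured at 956, 317, 393 and 439.6 TPM (526 ± 291). Replicate 1 was more than 2-fold above each of the other libraries. Ldha, the lactate dehydrogenase subunit that favours lactate formation, lies at chr7:46841475-46855627 on the plus strand and stood at 544, 239, 306 and 284 TPM (343 ± 137). It too was highest in replicate 1.

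Lactate export was represented by Slc16a3 and Slc16a1, which encode MCT4, the low-affinity exporter of glycolytic cells, and MCT1, the widely expressed transporter. Slc16a3, at chr11:120948480-120960868 on the plus strand, was measured at 12.0, 22.8, 10.6 and 20.6 TPM (16.5 ± 6.10). Slc16a1 was measured at 8.82, 2.64, 3.48 and 3.04 TPM (4.50 ± 2.90). The pair went opposite ways between libraries: Slc16a3 was high in replicates 2 and 4, and Slc16a1 was high in replicate 1 alone. Slc16a3 held 57.7, 89.6, 75.2 and 87.2% of the sum of both, a mean of 77.4% ± 14.6, and was 3.87-fold above Slc16a1.

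**Figure D2:**
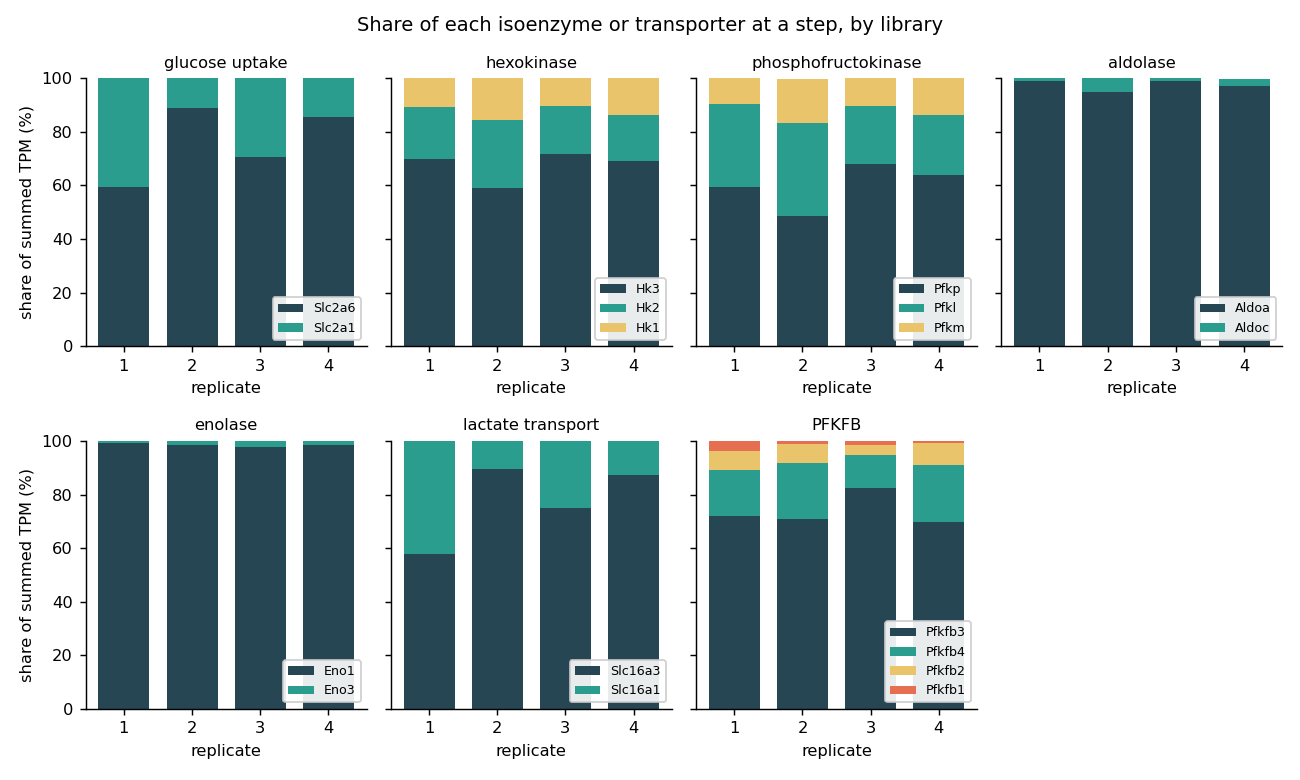
Share of the summed TPM at each of the 7 steps with several genes (vertical axis, percent) held by each gene, with 1 stacked bar per library. The dark lower segment is the leading gene, which is the same in all 4 libraries at each step; its share moves most at glucose uptake (59.4 to 89.1%) and lactate transport (57.7 to 89.6%).

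In the oxidative arm of the pentose phosphate pathway, G6pdx encodes the rate-limiting glucose-6-phosphate dehydrogenase and stood at 99.0, 119, 129 and 149 TPM (124 ± 21). It was 1 of 3 genes of the list (9.38%) with the lowest scaled count in replicate 1, against 32.6% of all genes tested. Pgls, the lactonase that follows, lies at chr8:71592176-71601092 on the plus strand and was measured at 83.8, 71.1, 37.7 and 50.3 TPM (60.7 ± 20.6). Pgd, the second NADPH-forming enzyme, stood at 226 ± 22.6 TPM. In the non-oxidative arm, Taldo1 (transaldolase) stood at 303 ± 27.2 TPM and Tkt (transketolase) at 161 ± 37.2 TPM. Rpe, the epimerase of ribulose-5-phosphate, was at 21.5 ± 3.17 TPM and Rpia, the isomerase that forms ribose-5-phosphate, at 7.28 ± 0.636 TPM. By gene level Taldo1 and Tkt, which rearrange sugars, were thus above both genes that process ribulose-5-phosphate in 4 of 4 libraries. For Tkt this rests on a transcript not annotated as coding. The coding Tkt-201 stood at 70.3, 40.0, 19.0 and 34.6 TPM in the first transcript table. In replicate 3 it was below Rpe at 21.6 TPM.

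Whether the genes differed between libraries by more than counting noise was asked with a chi-square test on counts scaled to library size, fitted on 12626 genes, which covers counting error only. Of the 32 genes 30 passed at a Benjamini-Hochberg adjusted p of 0.05, against 88.6% of all genes tested. The exceptions were Eno3 (adjusted chi-square p = 0.324) and Rpia (adjusted chi-square p = 0.361). A gene was called variable when its scaled counts also spanned at least 2-fold. Of the 32 genes 9 (28.1%) were called variable, against 33.0% of all genes tested, so the list held no larger share than the background. The deposited TPM intervals, whose level is not stated, did not overlap for at least 1 pair of libraries in 29 of the 32 genes (90.6%). This was so for 77.5% of genes at 1 TPM in every library. The 2 sets are unlike, since the 29 include Pfkfb1, which did not reach 1 TPM in every library. The list also had the higher median level, 55.9 against 16.9 TPM, and the part of level in this difference was not tested. In 2 of the 32, Slc16a1 and Pfkfb2, 1 library lay apart from the other 3 by a wide gap, which was so for 8.43% of genes at 1 TPM. The edgeR biological coefficient of variation, a description of spread beyond counting noise, had a median of 0.245 over the genes of the list and 0.272 over all genes kept.

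The variable genes were grouped by the libraries in which they were highest. Pkm (2.91-fold from lowest to highest scaled count), Slc16a1 (3.26-fold), Pfkfb1 (3.08-fold), Ldha (2.23-fold), Pgk1 (2.16-fold) and Pgls (2.07-fold) were highest in replicate 1. These 6 are 18.8% of the 32, against 13.6% of all genes tested. Among them Pgls was high in replicate 2 as well, at 83.8, 71.1, 37.7 and 50.3 TPM in replicates 1 to 4. In Aldoc (5.60-fold), Slc2a6 (4.69-fold) and Slc16a3 (2.11-fold) replicates 2 and 4 both lay above replicates 1 and 3, which are 9.38% of the 32 against 8.90% of all genes. The list as a whole had its highest scaled count in replicate 1 for 17 of 32 genes (53.1%), against 35.8% of all genes. Scaling by DESeq2 factors left this count at 17. TPM over nuclear genes other than ribosomal RNA gave 20, with the same 17 genes and Hk3, Aldoa and Pfkfb2. By TPM of the second quantification, the leading transcripts of some of the 17 were highest in other libraries. Hk2-201 stood at 26.4 TPM in replicate 1 and 27.4 in replicate 4, and Rpia-201 at 5.48 in replicate 1 and 6.19 in replicate 3. Others, such as Pkm-201 at 472 TPM, stayed highest in replicate 1.

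The genes highest in replicate 1 included 9 of the enzymes from glucose-6-phosphate to lactate, namely Gpi1, Pfkl, Tpi1, Gapdh, Pgk1, Pgam1, Eno1, Pkm and Ldha. Over all genes tested 35.8% were highest in replicate 1. Among the other genes on this stretch, Pfkp, Pfkm and Aldoa were highest in replicate 4 by scaled counts. Aldoc was highest in replicate 2 and Eno3 in replicate 3. Hk3, Pgd, Taldo1 and G6pdx were also highest in replicate 4. By scaled counts of the second quantification Aldoa and Hk3 were instead highest in replicate 1. By its TPM their leading transcripts were highest in replicate 4. Aldoa-201 stood there at 340.1 TPM in replicate 1 and 405 in replicate 4, and Hk3-201 at 108 and 137 TPM. The deviations in log2(CPM + 1) from the mean of the 4 libraries, where CPM is the depth-scaled count, were 0.92 for Pkm, 0.68 for Ldha, 0.61 for Pgk1, 0.55 for Eno1 and 0.38 for Gapdh in replicate 1. The pentose phosphate genes were mixed in the same library, at 0.46 for Pgls, 0.44 for Tkt, 0.21 for Rpe, 0.10 for Rpia, -0.02 for Taldo1, -0.05 for Pgd and -0.38 for G6pdx. The median deviation of the 32 genes was 0.13, -0.12, -0.14 and 0.05 in replicates 1 to 4, against medians within 0.02 of 0 for all genes. Without replicate 1, the library with the largest ribosomal RNA share, 2 of the 9 genes remained variable, Slc2a6 and Aldoc, and the share of all genes called was 16.1%. Without replicate 2, 6 did, and 27.7% of all genes were called.

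**Figure D3:**
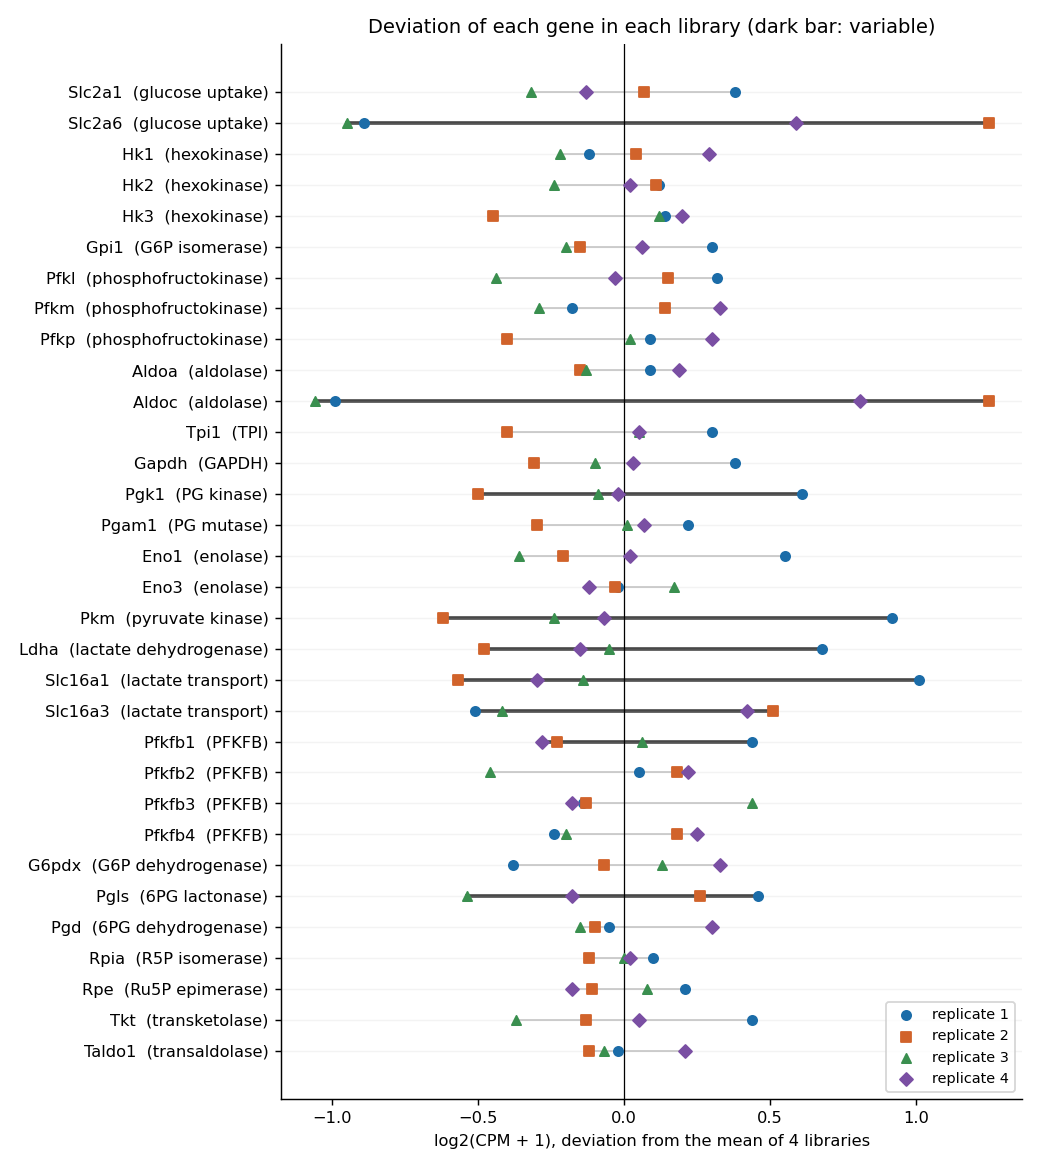
Deviation of each gene's log2(CPM + 1) in each library from its own mean over the 4 libraries, with dark bars on the 9 variable genes and pale bars on the rest. Replicate 1 is the rightmost symbol for most glycolytic genes from Tpi1 to Ldha, and replicates 2 and 4 lie to the right of zero for Slc2a6, Aldoc and Slc16a3.

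The deposited lists of files name 6 read files for replicates 1 and 2 and 4 for replicates 3 and 4, a recorded technical difference that no source calls a batch. The edgeR quasi-likelihood test between these pairs called 0 of the 32 genes, as it called 0 of 12701 genes in all (0%). At an unadjusted p under 0.05 it passed 1 of the 32, Pgls, against 2.28% of all genes. Pgls was higher in both libraries with 6 read files, by a log2 difference of 0.75 (SE 0.27), with an edgeR adjusted p of 1.000. DESeq2 called 0 of the 32 and 35 genes in all. With 2 libraries a side, the number of read files and any other difference between these pairs cannot be told apart.

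The deposited files hold 2 estimates of each transcript's level, and both gave the same leading transcript for 29 of the 32 genes, which together have 264 annotated transcripts. In 13 genes the leader held at least 90% in both tables, among them Pgk1, Pgam1, Tpi1, Ldha, Taldo1 and Slc16a1, the last with a single transcript at 100.0%. The exceptions were Pfkp, Aldoc and Pfkfb3. Pfkp-207, with a long 3′ end, held 48.4% ± 5.37 in the first table and 24.2% ± 1.26 in the second, where Pfkp-201 led with 50.7% ± 4.07. Aldoc-201 held 49.5% ± 14.7 in the first table, and Aldoc-202 led in the second with 58.0% ± 7.06. Pfkfb3-220 held 43.2% ± 15.7 in the first table and 7.65% ± 1.07 in the second, where Pfkfb3-206 led with 42.6% ± 5.43.

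Pkm transcripts carried mainly the downstream exon. Its share of the summed level of both forms was 78.4, 85.7, 82.4 and 82.2% in replicates 1 to 4 of the first table, a mean of 82.2% ± 2.98 (SD, n = 4). In the second table it was 74.4, 83.1, 76.1 and 79.7%, a mean of 78.3% ± 3.88. In both tables replicate 1, where Pkm was highest, had the lowest share and replicate 2, where Pkm was lowest, the highest. The level of the upstream-exon form was 205, 44.8, 68.1 and 77.1 TPM in the first table, so the form known from muscle was listed above 0 in every library.

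Transketolase was the gene whose leading transcript was not annotated as protein coding in either table. Tkt-209, a processed transcript of 1962 bases and 14 exons, held 72.6% ± 7.83 of the Tkt level in the first table and 81.7% ± 3.75 in the second. The coding Tkt-201 held 24.3% ± 7.72 and 17.2% ± 2.89. Protein-coding transcripts of Tkt summed to 41.0 TPM of the 161 TPM of the gene. Tkt-209 starts 8478 bases downstream of the RefSeq start site.

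Several other genes had a large second transcript. For Gpi1, the leading Gpi1-201 held 66.6% ± 11.0 and Gpi1-207, annotated for nonsense-mediated decay, 23.8% ± 5.27, with 53.3% and 23.0% in the second table. For Gapdh, the 483-base noncoding Gapdh-208 held 21.2% ± 9.81 in the first table and 2.81% ± 2.05 in the second, and Gapdh-203 held 74.9% and 93.2%. For Hk1, Hk1-202 held 71.1% ± 2.81 and 40.7% ± 3.50, and Hk1-201 22.4% and 27.8%. The leader of Slc2a6, Slc2a6-201, held 68.6% and 60.2%, beside the noncoding Slc2a6-205 with 20.5% and 26.2%. Slc2a1-204, a decay transcript, held 5.62% of Slc2a1 in the first table and 28.2% in the second, while Slc2a1-201 held 91.8% and 62.7%.

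The transporter and regulator genes were also mixed. Slc16a3-201 and Slc16a3-207 held 47.6% and 29.0% of Slc16a3 in the first table and 52.9% and 29.2% in the second. Pfkfb4-203 held 56.8% and the noncoding Pfkfb4-205 28.0%, against 56.2% and 21.4%. Pfkfb2-203 held 56.6% in both tables, with Pfkfb2-204 at 20.8% in the first and Pfkfb2-205 at 20.7% in the second. The low genes Pfkfb1 and Eno3 were not settled: Pfkfb1-201 and Pfkfb1-206 held 48.3% and 25.9%, and Eno3-201 was at 0, 2.30, 2.56 and 0.230 TPM in replicates 1 to 4 of the first table, where Eno3-206 was at 1.41, 0, 0 and 1.60 TPM.

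**Figure D4:**
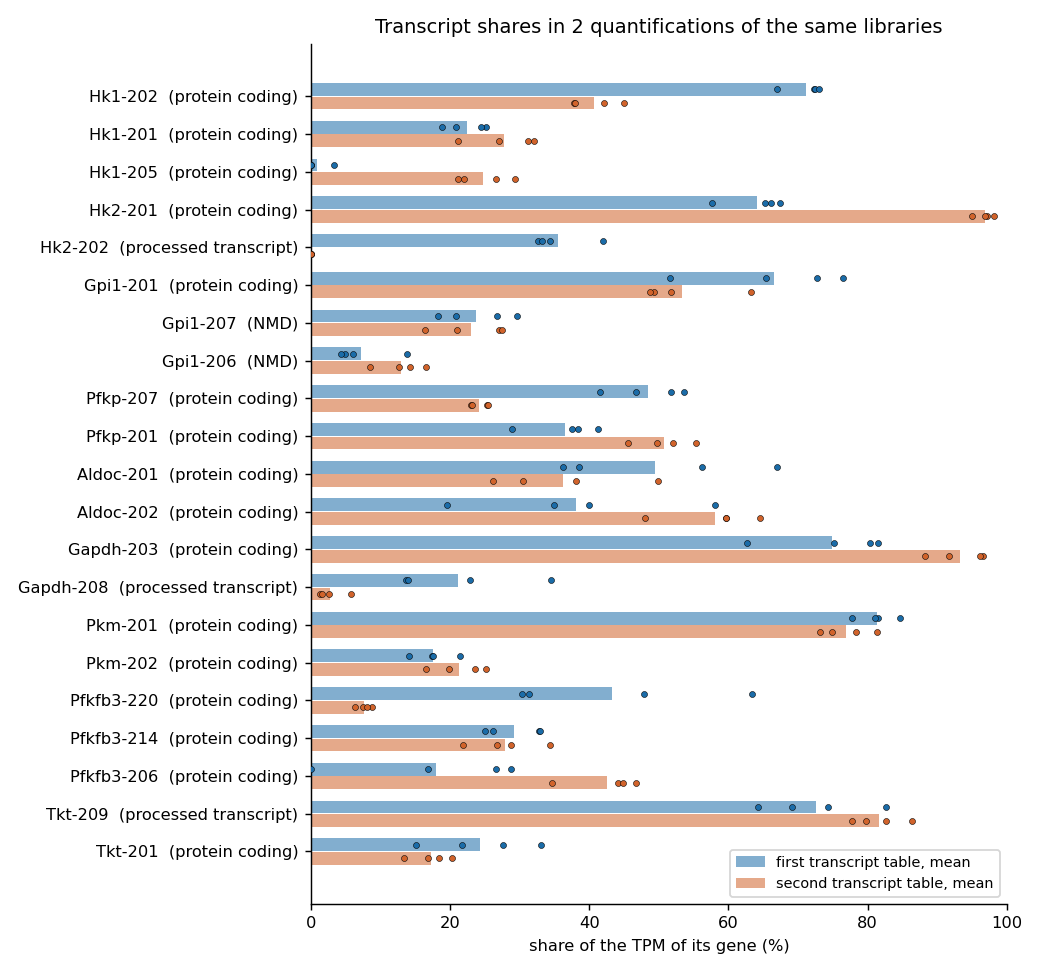
Share of a gene's TPM held by its main transcripts (horizontal axis, percent) for 9 of the genes, as the mean of 4 libraries (bars) with single libraries as dots, in the first (blue) and second (orange) transcript table. Both tables give similar bars for Pkm, Tkt and Gpi1-207 and different ones for Hk2-202, Gapdh-208, Pfkp and Pfkfb3.

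Sequence shared with other annotated genes makes some levels uncertain. Of the 31-base words of Gapdh-203, 84.1% also occurred in annotated transcripts of other genes, mostly the processed pseudogene Gm7336, which was itself assigned 47.3 TPM. The corresponding share was 77.2% for Eno1, mostly with Eno1b, 68.3% for Pgk1, 50.9% for Pkm, 43.3% for Pfkfb2, 42.1% for Pgam1, 39.2% for Ldha, 37.3% for Gpi1, 35.0% for Aldoa and 25.2% for Taldo1. Slc2a6, Aldoc, Slc16a1, Slc16a3, Tkt, Pgd and Pgls shared none. Most shared words of Pfkfb2 occurred in Gm29427, which was assigned 0 TPM and overlaps Pfkfb2 by 1262 exon bases on the same strand. Gm49759 overlaps Pkm by 767 exon bases on the same strand. Opposite-strand genes also overlap G6pdx (Ikbkg, 418 exon bases) and Rpe (Kansl1l, 558 exon bases).

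Another 63 genes around these pathways were measured. Of these 40 reached 1 TPM in every library, and 13 of the 42 tested were variable, near the background of 33.0% of all genes. A count of 0 in every library was found for genes known mostly from single tissues, among them Hkdc1, Gapdhs, Pgk2, Pklr, Ldhc, Slc2a2, Tktl1, Tktl2, Fbp2 and G6pc. Among the other isoenzymes, Minpp1 stood at 19.1 TPM, Adpgk, an ADP-dependent glucokinase, at 14.7, and Eno2, the neuronal enolase, at 10.8. Pgp (6.68 TPM), Eno1b (5.55), Bpgm (4.66), Ldhb (4.07) and Pgam2 (1.36) were lower, and the phosphoglucomutases Pgm1 and Pgm2 stood at 21.2 and 20.8 TPM. Ldhb, the heart-type subunit, was thus far below Ldha at 343 TPM.

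Bsg, the chaperone that carries MCT1 and MCT4 to the membrane, stood at 259 ± 10.8 TPM, above both transporters. Emb, another such chaperone, was variable at 34.5, 137, 67.6 and 119.9 TPM, with replicates 2 and 4 above replicates 1 and 3 as for Slc16a3. Slc16a7, which encodes MCT2, was also variable at 22.1, 48.0, 35.1 and 37.8 TPM, again with replicates 2 and 4 above replicates 1 and 3. Its mean of 35.7 TPM lay above that of Slc16a3 at 16.5 TPM. Mpc1, a subunit of the mitochondrial pyruvate carrier, stood at 176, 332, 337 and 295 TPM and was variable, lowest in replicate 1. Pdhb and Pdha1, subunits of pyruvate dehydrogenase, stood at 47.4 and 40.2 TPM.

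In the pentose phosphate group Prps2, which makes phosphoribosyl pyrophosphate, stood at 29.8 TPM, H6pd at 13.1 and Rbks at 10.4. Of the phosphatases that run glycolysis backwards, G6pc3, the ubiquitous glucose-6-phosphatase, was at 19.1 TPM and Fbp1 at 0.0175 TPM. Cybb, the NADPH-consuming subunit of the phagocyte oxidase, was at 360.0 ± 77.7 TPM and Gsr, glutathione reductase, at 32.8 ± 3.40. Of 9 regulators tested 1 was variable, against 33.0% of all genes: Myc, a transcription factor known to act on many glycolytic genes, was measured at 72.5, 22.3, 44.5 and 25.3 TPM, highest in replicate 1. Hif1a, the hypoxia-inducible subunit, stood at 50.7 ± 10.6 TPM and Trp53 at 36.4 ± 10.8 TPM, and neither was called variable.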

How the data were processed

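Polyadenylated RNA of 4 libraries of 1 group was analysed. The deposited gene table holds expected counts and TPM per the file headers, with bounds of a TPM interval, a signal whose level is not stated, and 2 deposited transcript tables hold estimated counts and TPM. The deposited text lists name mm10 and GENCODE M21, and the column names are those RSEM and kallisto write; the aligner, counting tools, versions and strand use: not given in the sources used here. Summing the second transcript table to genes gave the second quantification. Although the rule for the 32 genes uses symbols alone, the list, the related genes and the rules for naming genes were drawn up with earlier results of these data known. Named were every gene of the list with its mean, with single libraries for isoenzymes and variable genes, coordinates for leading isoenzymes and single variable genes, related isoenzymes at 1 TPM, the 3 highest of each other related group, and the 2 main transcripts where a second held 10%. Protein stretches were not used here.

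Counts were rounded and scaled with edgeR 4.0.16 (TMM) in R 4.3.3. The chi-square test (3 degrees of freedom) used genes whose mean count reached 10, adjusted by Benjamini-Hochberg at 0.05; 32 of the 33 gene rows passed this minimum. The read-file contrast used edgeR's quasi-likelihood test, with DESeq2 1.42.0 as an alternative. Isoenzyme pairs used log2(TPM + 0.1), which understates differences of low genes, and an exact sign-flip permutation test. On data simulated with counting noise alone, the chi-square test found 89% of 2-fold and 100% of 4-fold changes beyond noise over 12641 genes. With the 2-fold range required as well, it found 100% of 4-fold changes, and 2-fold changes were not tried. The real libraries spread beyond counting noise, so these shares do not carry over to them. On data simulated with a common spread beyond counting noise, the edgeR contrast recovered 64% of 4-fold and 100% of 16-fold changes over 12812 genes. Alternatives were other scalings, filters, pseudocounts, quantifications, protein-coding transcripts only and leaving out each library. A count of 0 in a library allows up to 3 counts, which is 0.0761 to 0.111 CPM, for counting error only.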

Additional observations from a re-analysis of the deposited data

Results flagged for a closer look

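In 2 of the 32 genes (6.25%) 1 library lay apart from the other 3, with a gap to its nearest neighbour larger, as a share of the whole range, than Dixon's 95% critical value for 4 samples. Such a gap was found in 8.43% of the 10250 genes at 1 TPM in every library, and chance gives about 1 in 20. Slc16a1, which encodes the lactate transporter MCT1, stood at 8.82 TPM in replicate 1, with a gap of 0.864 of the range. Pfkfb2 stood at 2.89 TPM in replicate 3, below the other libraries, with a gap of 0.873 of the range.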

How the results depend on the processing

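The same gene led each of the 7 steps with several genes in every library in all alternatives run, which were the second quantification, posterior mean TPM, TPM rescaled without ribosomal RNA and mitochondrial genes, protein-coding transcripts only (added after seeing the data) and leaving out each library. The median level of the 32 genes was 55.9 TPM and moved to 44.0 TPM in the second quantification and to 41.5 TPM with protein-coding transcripts only. It was 51.1 to 60.2 TPM with 1 library left out. Pairs of genes at a step kept their sign in every library in 16 of 16 cases, except in 15 of 16 in the second quantification and with protein-coding transcripts only. The exception was Hk2 against Hk1, whose log2 difference of 0.67 became -0.02 in the second quantification. Neighbouring steps that kept their order numbered 5 to 9 with 1 library left out, against 6. Variable genes numbered 9, and 21 of 32 at a 1.5-fold range (58.2% of all genes), 8 at a minimum mean count of 50 (27.3%), 10 in the second quantification (36.1%, adding Eno1), and 2 to 9 with 1 library left out. Without replicates 1, 2, 3 and 4 the counts were 2, 6, 8 and 9, where 16.1, 27.7, 26.5 and 29.2% of all genes were called; the cause was not tested. The read-file contrast called 0 of the 32 genes in every alternative, and 0 to 4 at an unadjusted p under 0.05. The leading transcript was the same in 31 or 32 genes with 1 library left out, Eno3 being the exception. The downstream Pkm exon share moved from 82.2 to 78.3% in the second table.

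No paired analysis was possible because all libraries belong to 1 group. Precision is limited by 4 libraries of unknown independence, by low counts for Pfkfb1 and Eno3, and by the shared sequence of Gapdh, Eno1, Pgk1 and Pkm.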
